A study of Mus musculus with 96 samples.

Results

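Immediate early genes are genes whose transcription rises within minutes of a stimulus without new protein synthesis. Here 10 of them were followed in mouse liver: the AP-1 subunits Fos, Fosl2, Jun and Junb, the transcription factors Egr1, Atf3 and Myc, and the early response genes Ier2, Ier3 and Btg2. They were chosen by name, with earlier results of these data known. All 10 were found among the 55421 identifiers of the count table. All 10 also passed the filter on low counts that left 15772 genes for testing. Liver mRNA had been sequenced from mice of 12 to 16 weeks at 6 times of day spaced 4 h apart (zeitgeber time, ZT, counts the hours since lights on), as 96 libraries in 8 groups of 12. The groups were Bmal1 wild type (WT), Bmal1 knockout (KO), Cry1/2 WT and Cry1/2 KO, each either fed ad libitum (AL) or fed at night only (restricted feeding, RF). The Cry1/2 line is called the Cry line below. Each group and time had 2 libraries, 1 from each of 2 numbered series. The labels say neither which animal gave a library nor in which cells the genes were deleted, so the p-values rest on the variation among libraries, which may be technical in part.

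BMAL1 activates and CRY1 and CRY2 repress transcription in the circadian clock. AP-1 is a dimer of Fos and Jun family proteins, and its subunits are themselves induced through the MAP kinase and cyclic AMP pathways, acting on serum response factor and CREB. EGR1 is a zinc finger factor that responds to growth factors, ATF3 is a stress-induced member of the ATF family, and MYC drives growth and ribosome production. In liver these genes are known for fast induction after partial hepatectomy and in inflammation.

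RefSeq promoters (GRCm38.p6), from 250 bases before to 50 bases after the annotated start, were searched for 7 of the 10 genes. Egr1 was left out of this search, and no window was matched for Myc and Ier2. The 3 shown hold the cyclic AMP response element TGACGTCA or its core TGACG, through which CREB and ATF proteins act on early genes. Capitals mark TGACG or TGACGTCA and the TATA box TATAAA. All motifs were searched on both strands except TATAAA, which was searched on the printed strand only. Positions are counted from the annotated start as 0.
Fos, chr12:85473640-85473939, plus strand: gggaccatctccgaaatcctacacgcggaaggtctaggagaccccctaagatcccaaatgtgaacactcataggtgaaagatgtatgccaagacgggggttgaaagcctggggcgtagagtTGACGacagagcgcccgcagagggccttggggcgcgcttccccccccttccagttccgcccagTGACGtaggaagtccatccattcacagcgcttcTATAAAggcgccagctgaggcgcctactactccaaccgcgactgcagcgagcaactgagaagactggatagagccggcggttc
Junb, chr8:84978699-84978998, minus strand: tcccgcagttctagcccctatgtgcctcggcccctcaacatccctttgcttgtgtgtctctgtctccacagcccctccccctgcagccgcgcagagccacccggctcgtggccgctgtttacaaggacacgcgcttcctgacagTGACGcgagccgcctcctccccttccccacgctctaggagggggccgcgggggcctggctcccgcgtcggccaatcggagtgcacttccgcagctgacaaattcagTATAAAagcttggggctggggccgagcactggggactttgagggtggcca
Btg2, chr1:134079106-134079405, minus strand: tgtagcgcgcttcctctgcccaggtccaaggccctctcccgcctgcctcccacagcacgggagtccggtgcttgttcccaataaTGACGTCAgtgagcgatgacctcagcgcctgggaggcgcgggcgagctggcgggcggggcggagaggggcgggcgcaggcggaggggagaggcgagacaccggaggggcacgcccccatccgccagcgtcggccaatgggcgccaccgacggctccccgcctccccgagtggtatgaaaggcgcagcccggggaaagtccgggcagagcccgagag
In the Fos window TGACG lay at -129 to -125 and at -66 to -62, with TATAAA at -33 to -28. The Junb window held TGACG at -106 to -102 and TATAAA at 0 to 5. Btg2 alone among the 7 held the palindrome TGACGTCA, at -166 to -159, which 1.79% of all 32851 such windows held. TGACG, which lies within TGACGTCA, was found in 4 of the 7 windows (Fos, Junb, Btg2 and Atf3) and in 20.8% of all windows. TATAAA was found in 2 of the 7 and in 8.32% of all. TGANTCA (the AP-1 site), CACGTG (the E-box) and the CArG box of serum response factor matched in 0 of the 7 windows, against 7.81%, 7.15% and 1.63% of all windows. These matches describe letters in a window, not bound sites.

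Total counts ran from 1478963 to 35568856 per library, with a median of 25422366. Levels are CPM, counts scaled to library size after TMM normalisation. The 8 hepatocyte marker genes summed to between 37242 and 140134 CPM in every library. Of 8 endothelial markers, the sum was 359 to 408 CPM in series 1 of Cry KO AL and 65.7 to 133 CPM in series 2, with no overlap. There were 7 libraries set apart by Saa1 above 5000, Isg15 above 50 or Ctrb1 above 40 CPM. Counts over Arntl (the gene of BMAL1), Cry1 and Cry2 do not check the deletions, since exons outside a deleted stretch still give reads. Arntl lay between 9.71 and 15 CPM in Bmal1 KO AL and between 13.0 and 21.2 CPM in Bmal1 KO RF, inside the WT ranges of 0.272 to 35.3 and 1.01 to 45.0 CPM. Cry1 had 5.38 to 9.95 CPM in Cry KO AL and 5.88 to 12.7 CPM in Cry KO RF, where wild types had 5.95 to 51.4 and 6.33 to 71.4 CPM. For Cry2 the knockouts had 17.8 to 26.6 CPM (AL) and 13.1 to 32.0 CPM (RF), where wild types had 18.9 to 56.8 and 21.9 to 60.7 CPM.

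Per length of exon, Ier2 was the most abundant of the 10, with a median of 11.4 CPM per kb over the 96 libraries, followed by Junb at 6.52 and Btg2 at 4.4 CPM per kb. Jun followed at 3.11, Myc at 2.24 and Egr1 at 1.89 CPM per kb. Fosl2 stood at 0.992, Ier3 at 0.688, Atf3 at 0.502 and Fos at 0.343 CPM per kb. Fos was thus near the edge of detection, with 19 counts in the median library. Fos was at 0 counts in series 2 of Cry KO AL at ZT4 and ZT20, which allows up to 0.322 and 1.11 CPM. Atf3 was at 0 counts in the same series at ZT4 and in series 5 of Cry KO RF at ZT4, which allows up to 0.322 and 0.661 CPM. These limits are 3 counts of the library's total and cover counting error only. The widest range belonged to Egr1, from 1.09 to 402 CPM with a median of 8.48 CPM. Ier2, whose product is a small nuclear regulator, ranged only from 8.85 to 46.8 CPM.

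**Figure D1:**
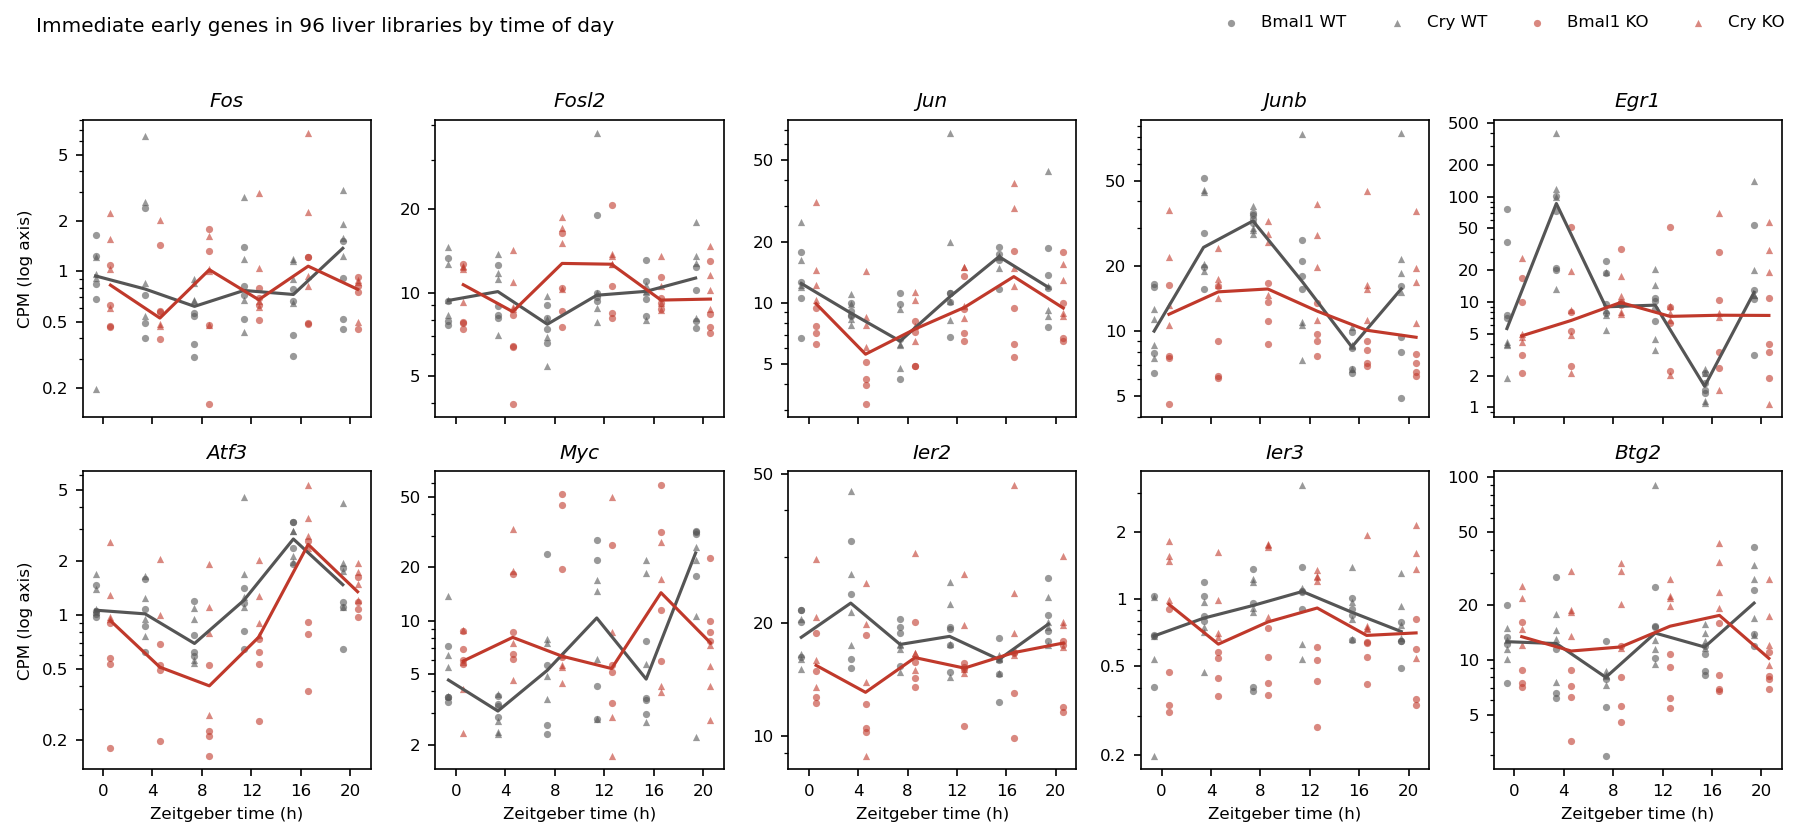
Level of each of the 10 genes in all 96 libraries against zeitgeber time in hours, in CPM on a log axis. Circles are the Bmal1 line and triangles the Cry line, grey is WT and red is KO, and lines join the medians of the 8 libraries of a genotype at a time. Values at 0 counts are not drawn. The WT median of Egr1 falls from 86.3 CPM at ZT4 to 1.59 CPM at ZT16, and the KO medians stay between 4.78 and 9.91 CPM.

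Most of the 10 genes had a daily course in the wild types. The WT medians of Egr1 and Junb were highest in the light phase, at ZT4 and ZT8, and Atf3, Jun, Myc and Btg2 were highest in the dark phase. Averaging the 24 h cosine of the 4 WT groups, 7 of the 10 were rhythmic, meaning a Benjamini-Hochberg adjusted p under 0.05 in edgeR's quasi-likelihood test and a range, from fitted trough to fitted peak, of no less than 0.5 on the log2 scale. The background share among all genes tested was 26.6%. The median fitted range was 0.94 over the 10 genes and 0.37 over all genes.

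Among the AP-1 subunits, Junb had the widest fitted range in the mean WT. The lowest, median and highest of the 8 WT libraries were 15.7, 24.5 and 51.7 CPM at ZT4, then 28.1, 32.5 and 38.2 CPM at ZT8. At ZT16 they were 6.43, 8.45 and 10.4 CPM. All 8 WT libraries at ZT8 were thus above all 8 at ZT16, in both lines and under both feedings. The other times were less regular, at 7.33, 17.0 and 82.0 CPM at ZT12 and 4.88, 15.7 and 83.0 CPM at ZT20. In Cry WT AL the highest library, 83.0 CPM at ZT20, stood beside 21.7 CPM. In Cry WT RF the highest, 82.0 CPM at ZT12, stood beside 7.33 CPM. The fitted range was 1.5 on the log2 scale with a peak at ZT 6.60 (adjusted p = 1.7e-05). The annotated Junb gene (ENSMUSG00000052837, GRCm38 chromosome 8, 84974484 to 84978718, minus strand) shares 351 bases with Prdx2 on the opposite strand. The library kit marks strand but the counting setting is not given, so reads there could come from either gene. The mean of Prdx2 over the 8 WT libraries of a time stayed between 67.6 and 82.7 CPM.

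Jun (ENSMUSG00000052684, chromosome 4, 95049034 to 95052222, minus strand) ran the other way. Its 8 WT libraries were at a lowest, median and highest of 11.7, 16.9 and 18.9 CPM at ZT16, against 4.25, 6.51 and 11.2 CPM at ZT8. These sets did not overlap. The fitted range was 1.03 with a peak at ZT 17.9 (adjusted p = 0.00255, edgeR). An antisense gene, Junos, shares 689 bases with Jun but had 789 counts in all against 27136 for Jun.

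Fos (ENSMUSG00000021250, chromosome 12, 85473890 to 85477273, plus strand) and Fosl2 (ENSMUSG00000029135, chromosome 5, 32135801 to 32157842, plus strand) were not called rhythmic. Fos WT medians lay between 0.618 CPM at ZT8 and 1.37 CPM at ZT20, with a fitted range of 0.80 (adjusted p = 0.197, edgeR). Its highest WT library, 6.49 CPM at ZT4, stood beside a median of 0.784 CPM at that time. Fosl2 was steadier, with WT medians between 7.69 and 11.3 CPM and a fitted range of 0.32 (adjusted p = 0.309).

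Of the other transcription factors, Egr1 (ENSMUSG00000038418) had the widest daily range of the 10. Its 8 WT libraries stood at a lowest, median and highest of 13.2, 86.3 and 402 CPM at ZT4 and at 1.11, 1.59 and 2.30 CPM at ZT16. All 8 WT libraries at ZT4 were above all 8 at ZT16. The values at ZT20 (3.11, 12.4 and 140 CPM) and at ZT0 (1.89, 5.61 and 76.4 CPM) were spread too widely to be set apart from ZT8 (5.45, 9.01 and 24.6 CPM). The fitted range was 3.85 on the log2 scale, with a peak at ZT 2.49 (adjusted p = 2.5e-06, edgeR).

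Atf3 (ENSMUSG00000026628, chromosome 1, 191170296 to 191218039, minus strand) had its daily high at ZT16. The lowest, median and highest WT libraries were 1.93, 2.65 and 3.31 CPM there, against 0.543, 0.694 and 1.2 CPM at ZT8, without overlap. The fitted range was 1.39 with a peak at ZT 17.2 (adjusted p = 9.7e-05). Myc (ENSMUSG00000022346, chromosome 15, 61985391 to 61990374, plus strand) was lowest and least spread at ZT4, at 2.29, 3.10 and 3.85 CPM. At ZT20 it stood at 2.20, 24.1 and 32.2 CPM, so that 1 of the 8 libraries there was as low as at ZT4. The fitted range of Myc was 1.97 with a peak at ZT 17.4 (adjusted p = 0.00189, edgeR). Without series 6 of Cry WT RF the range of Myc was 1.60 and the adjusted p 0.0612.

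Of the early response genes, Btg2 (ENSMUSG00000020423, chromosome 1, 134075170 to 134079120, minus strand), an antiproliferative gene, was called with a range of 0.86 and a peak at ZT 18 (adjusted p = 0.0329). Its WT libraries stood at 11.9, 20.4 and 41.6 CPM at ZT20 and at 2.99, 8.01 and 12.6 CPM at ZT8. Ier3 (ENSMUSG00000003541, chromosome 17, 35821684 to 35822923, plus strand), which protects cells from death signals, was called with a range of 0.67 and a peak at ZT 11.8 (adjusted p = 0.0149). Its 3.27 CPM at ZT12 in 1 library stood beside a WT median of 1.09 CPM at that time. Without that library the range was 0.49 and the adjusted p was 0.10, so the call of Ier3 was lost. The call of Btg2 was lost when any of 4 WT series was left out, with an adjusted p of up to 0.255 without series 2 of Bmal1 WT RF. Ier2 (ENSMUSG00000053560, chromosome 8, 84661331 to 84662852, minus strand) passed the test (adjusted p = 0.0444), but its range of 0.39 was under the minimum.

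In the knockouts Egr1 was not called rhythmic. Its 8 KO libraries stood at a lowest, median and highest of 2.13, 6.69 and 51.2 CPM at ZT4 and at 1.45, 7.5 and 70.4 CPM at ZT16, and these sets overlapped almost fully. Over the 4 KO groups 2 of the 10 genes, Atf3 and Jun, were called rhythmic, against a background of 9.11% of all genes. Atf3 had a range of 1.84 and a peak at ZT 17.8 (adjusted p = 4.7e-05), and Jun a range of 1.12 and a peak at ZT 17.5 (adjusted p = 0.00288). The WT peaks of these genes were at ZT 17.2 and ZT 17.9. The call of Jun was lost without series 1 of Bmal1 KO AL, with an adjusted p of 0.0879, and without series 2 of Cry KO AL.

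The difference of rhythm between the mean KO and the mean WT was itself tested, and 2 of the 10 genes were called, against 12.5% of all genes. For Egr1 the difference had a range of 4.23 (adjusted p = 0.00173, edgeR), with a KO range of 0.46 (adjusted p = 0.884). Without series 9 of Cry WT RF, which holds the library at 402 CPM, the range of the difference was 3.04 and the adjusted p was 0.0607. For Myc the difference had a range of 2.35 (adjusted p = 0.0254). At ZT4 the 8 KO libraries of Myc, at 4.63, 8.05 and 32.7 CPM, were all above the 8 WT libraries. At ZT20 the KO libraries, at 2.76, 7.5 and 22.7 CPM, overlapped the WT. The call of Myc was lost in 10 of 24 alternatives, with an adjusted p of up to 0.259 without series 6 of Cry WT RF.

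The difference for Junb had a range of 1.12 and was not called (adjusted p = 0.13). Its KO libraries ranged from 8.70 to 32.6 CPM at ZT8 and from 6.90 to 44.8 CPM at ZT16. The KO groups differed in level: at ZT8 the 4 Bmal1 KO libraries held 8.70 to 16.7 CPM and the 4 Cry KO libraries 14.7 to 32.6 CPM. The differences for Atf3 (range 0.51, adjusted p = 0.761) and Jun (range 0.16, adjusted p = 0.971) were not called, which does not show that their courses were alike.

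**Figure D2:**
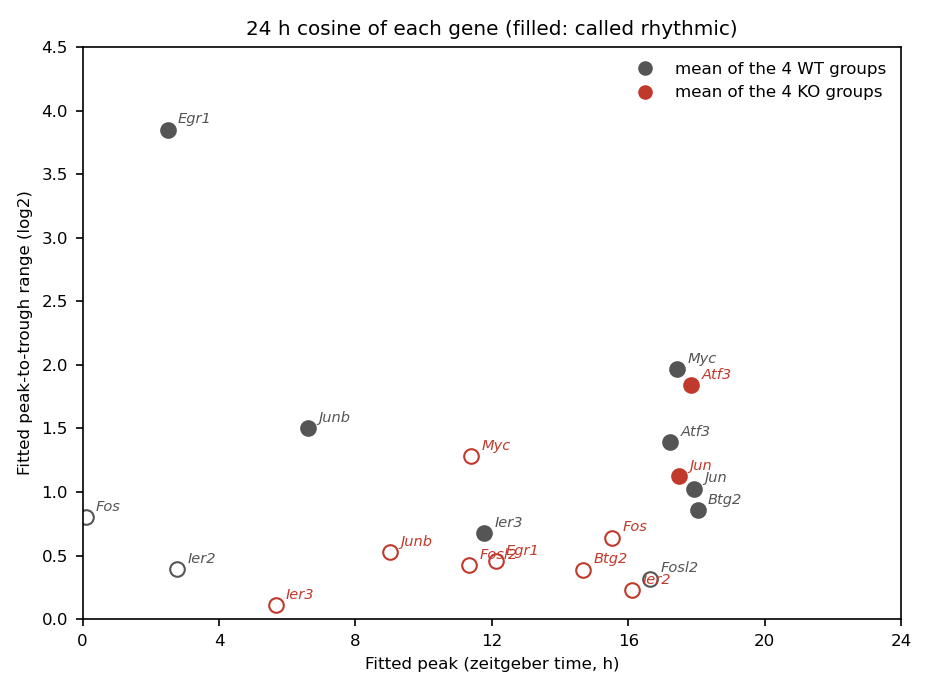
Fitted peak time in hours (x axis, zeitgeber time) against fitted peak-to-trough range in log2 units (y axis) of each gene, for the mean of the 4 WT groups and the mean of the 4 KO groups. Filled symbols passed the call. Egr1 has the widest WT range, 3.85, and a KO range of 0.46, and Atf3 and Jun keep filled symbols in both genotypes.

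Group by group, with 12 libraries each, fewer calls were made. In Bmal1 WT AL 1 of the 10 was called, against 9.97% of all genes: Junb with a range of 2.59 and a peak at ZT 6.75 (adjusted p = 0.00356). In Bmal1 WT RF 0 of the 10 were called (12.8% of all genes), with adjusted p = 0.0524 for Myc, 0.059 for Junb and 0.0749 for Egr1 in edgeR. There 4 of the 10 and 4245 of all 15772 genes had an unadjusted p under 0.05. DESeq2 called 3 of the 10 and limma-voom 2. In Cry WT AL 1 was called (6.67%), Jun with a range of 1.73 and a peak at ZT 19.5 (adjusted p = 0.0323). In Cry WT RF 4 were called (18.9%). They were Egr1 with a range of 4.90, Ier3 with 1.97, Junb with 1.94 and Atf3 with 1.79.

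Single series bore on these calls. Egr1 in Cry WT RF had a range of 1.80 and an adjusted p of 0.681 without series 9, and Ier3 had a range of 1.21 and an adjusted p of 0.524 without series 6. The call of Junb in Bmal1 WT AL was lost when either of its series was left out, which leaves 6 libraries, with ranges of 2.78 and 2.51. Likewise Jun in Cry WT AL and Atf3 in Cry WT RF and in Cry KO RF were not called when either series of their own group was left out, and Junb in Cry WT RF was not called without series 6. In the knockouts, 0 of the 10 were called in Bmal1 KO AL (0.0317% of all genes), in Bmal1 KO RF (5.26%) and in Cry KO AL (0.0%), by edgeR and also by DESeq2 and limma-voom. At an unadjusted p under 0.05 the counts were 2, 0 and 2 of the 10, and 919, 3099 and 1260 of all 15772 genes. In Cry KO RF, Atf3 was called (6.63%), with a range of 2.59 and a peak at ZT 17.7 (adjusted p = 0.0201). Its highest value, 5.31 CPM at ZT16 in series 3, had 2.77 CPM beside it in series 5. Without the 7 libraries set apart its adjusted p was 0.281.

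Of the 10 genes 0 passed a test of rhythm difference between KO and WT within 1 line and feeding, by edgeR. The background was 0.767% in Bmal1 AL, 1.32% in Bmal1 RF, 0.913% in Cry AL and 2.66% in Cry RF. At an unadjusted p under 0.05 the counts were 0, 2, 1 and 2 of the 10, and 1172, 1467, 1494 and 2422 of all 15772 genes. DESeq2 called 0 in each, and limma-voom called 1, Fosl2 in Cry AL. Also 0 passed a test of rhythm difference between RF and AL, where the background was 0.0127% in Bmal1 WT, 0.0% in Bmal1 KO, 0.0888% in Cry WT and 0.0% in Cry KO. DESeq2 and limma-voom called 0 in each. At an unadjusted p under 0.05 there were 1, 0, 5 and 0 of the 10, and 254, 399, 1046 and 1127 of all 15772 genes. A shift of the daily course with night feeding was thus not detectable with 2 libraries per time. The fitted ranges of Egr1 in the 4 WT groups were 3.52, 3.89, 4.13 and 4.90, and the peaks lay between ZT 0.806 and ZT 3.83.

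**Figure D3:**
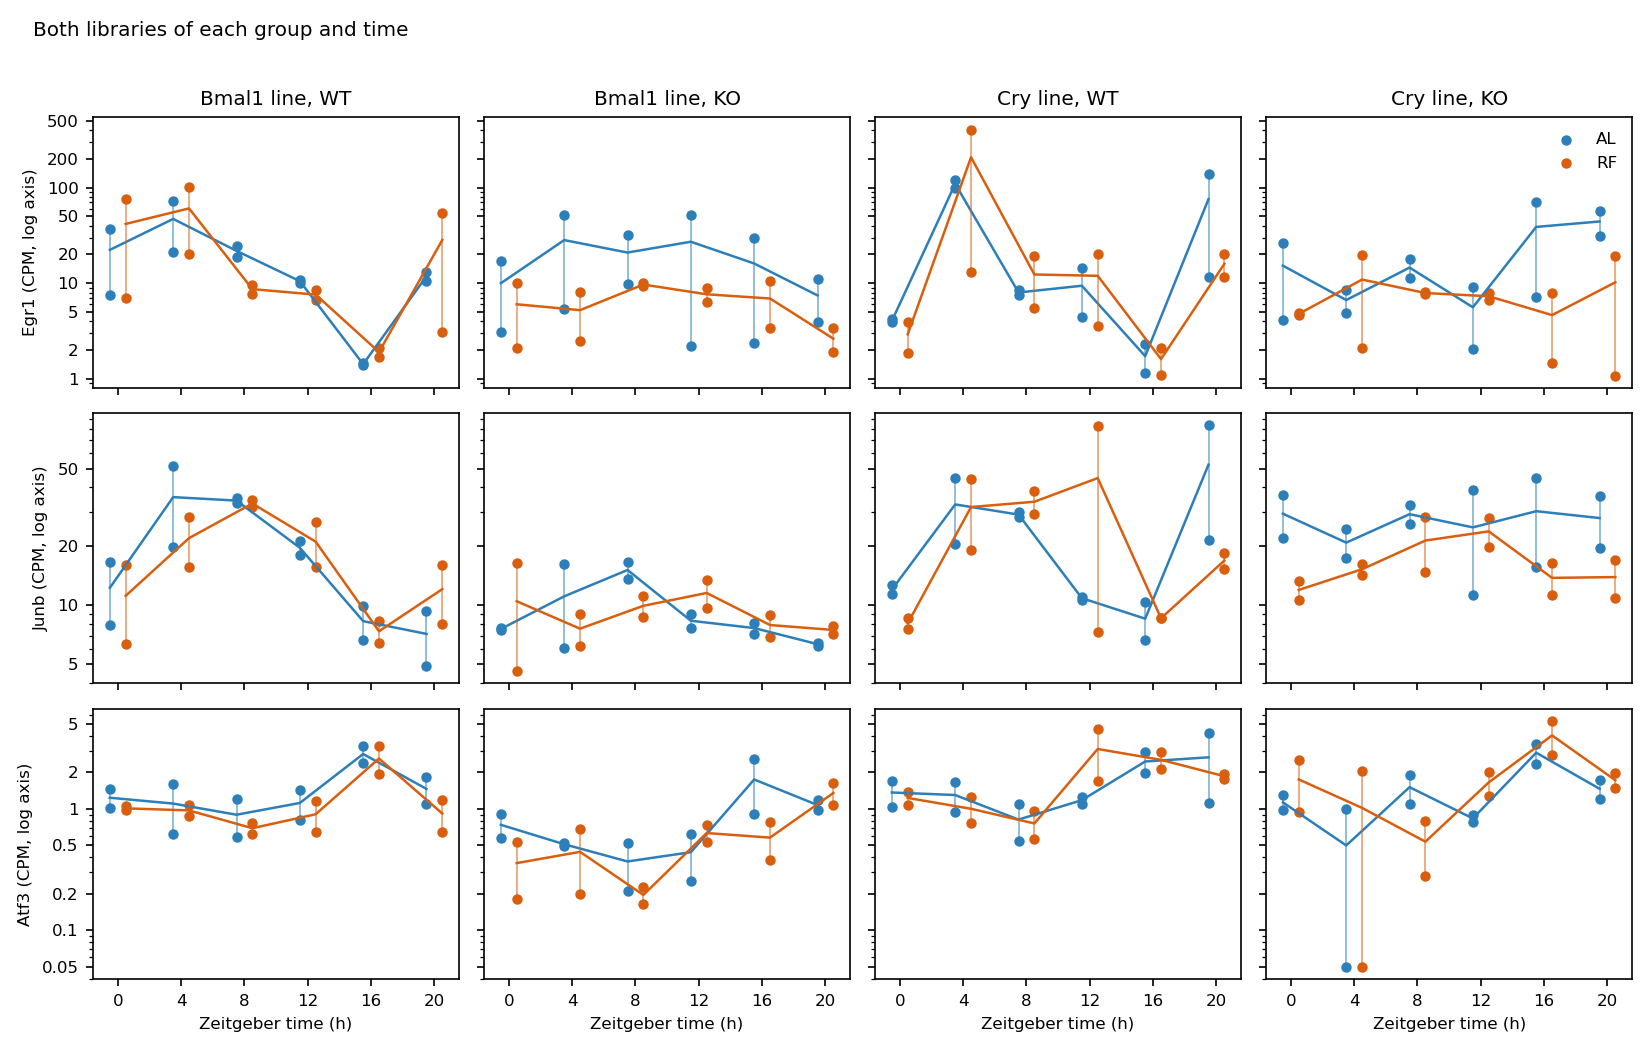
Egr1, Junb and Atf3 in each of the 8 groups against zeitgeber time in hours, in CPM on a log axis. Points are the 2 libraries of a group and time and lines join their means, and values of 0 are drawn at 0.05 CPM. In each of the 4 WT groups the mean of Egr1 is lowest at ZT16 and Junb stands between 28.1 and 38.2 CPM at ZT8.

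In the Bmal1 line the genes called between knockout and wild type were all lower in the knockout. Under AL, 3 of the 10 fell and 0 rose, against 24.4% of all genes called, 13.7% higher and 10.7% lower: Junb, Atf3 and Ier3. Under RF, 6 fell and 0 rose, against 20.6% called, 10.5% higher and 10% lower: those 3 with Ier2, Jun and Btg2. The median log2 difference of the 10 was -0.42 under AL and -0.63 under RF, and that of all genes was 0.02 and 0.01. Mean levels weight the 6 times equally. In bulk liver, fewer cells of a type and less RNA per cell cannot be told apart.

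Junb under AL stood at a lowest, median and highest of 4.88, 17.4 and 51.7 CPM in the 12 WT libraries and at 6.06, 7.67 and 16.7 CPM in the 12 KO libraries. The ranges overlapped, and the WT libraries at ZT16 and ZT20, at 4.88 to 9.96 CPM, were among the low ones. The difference was -0.84 ± 0.26 (log2, SE, adjusted p = 0.0121, edgeR). Under RF the values were 6.37, 15.9 and 34.6 CPM in WT and 4.61, 8.84 and 16.4 CPM in KO, with a difference of -0.82 ± 0.26 (adjusted p = 0.0178). The upper end was thus lower in the knockout, under both feedings.

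Atf3 fell by 0.90 ± 0.28 under AL (adjusted p = 0.0138) and by 1.07 ± 0.30 under RF (adjusted p = 0.00607, edgeR). Under AL its WT libraries stood at 0.590, 1.31 and 3.31 CPM and its KO libraries at 0.211, 0.599 and 2.59 CPM. Under RF they stood at 0.619, 1.01 and 3.28 CPM and at 0.165, 0.534 and 1.62 CPM. The ranges overlapped in both comparisons. Jun under RF fell by 0.59 ± 0.21 (adjusted p = 0.034), from 4.25, 9.33 and 18.9 CPM to 3.21, 6.41 and 13.6 CPM. Under AL its difference was -0.51 ± 0.20 (adjusted p = 0.0576).

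Ier3 fell by 0.79 ± 0.21 under AL (adjusted p = 0.00347, edgeR). Its libraries stood at 0.404, 0.902 and 1.36 CPM in WT and at 0.313, 0.512 and 0.747 CPM in KO. Under RF it fell by 0.66 ± 0.22 (adjusted p = 0.024). Ier2 under RF fell by 0.50 ± 0.15 (adjusted p = 0.0105), with WT libraries at 12.3, 16.8 and 23.9 CPM and KO libraries at 9.83, 12.2 and 15.7 CPM. Btg2 under RF fell by 0.70 ± 0.26 (adjusted p = 0.0437), with WT libraries at 5.51, 11.9 and 41.6 CPM and KO libraries at 3.61, 7.5 and 16.0 CPM. For each of these genes the highest WT library was above the highest KO library, and the ranges overlapped.

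Myc had the opposite sign but was not called, with differences of 0.75 ± 0.39 under AL (adjusted p = 0.166) and 0.85 ± 0.41 under RF (adjusted p = 0.139). Egr1 differed by 0.37 ± 0.54 under AL (adjusted p = 0.673) and by -1.29 ± 0.57 under RF (adjusted p = 0.107). Fos differed by 0.09 ± 0.38 and -0.07 ± 0.40, and Fosl2 by -0.13 ± 0.16 and -0.04 ± 0.17. These counts rest on few series. Under AL 0 genes were called without series 1 of Bmal1 WT AL, which holds the highest Junb library, and 1 (Ier3) without series 8 of Bmal1 KO AL. Under RF 0 were called without series 4 of Bmal1 KO RF, 1 (Ier2) without series 2 of Bmal1 WT RF, 1 (Atf3) without series 4 of Bmal1 WT RF and 2 (Atf3 and Ier2) without series 2 of Bmal1 KO RF. The 8 hepatocyte markers were lower in the Bmal1 KO too: their sum ranged from 37242 to 57885 CPM in KO AL and from 77188 to 128978 CPM in WT AL, without overlap. Under RF the sums were 39218 to 59519 CPM in KO and 57770 to 99449 CPM in WT. Their part in the result was not tested. The difference of the KO effect between RF and AL was called for 0 of the 10 genes and for 0.0% of all genes by edgeR. DESeq2 and limma-voom also called 0 of the 10, and edgeR had 1 of the 10 and 1036 of all genes at an unadjusted p under 0.05.

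**Figure D4:**
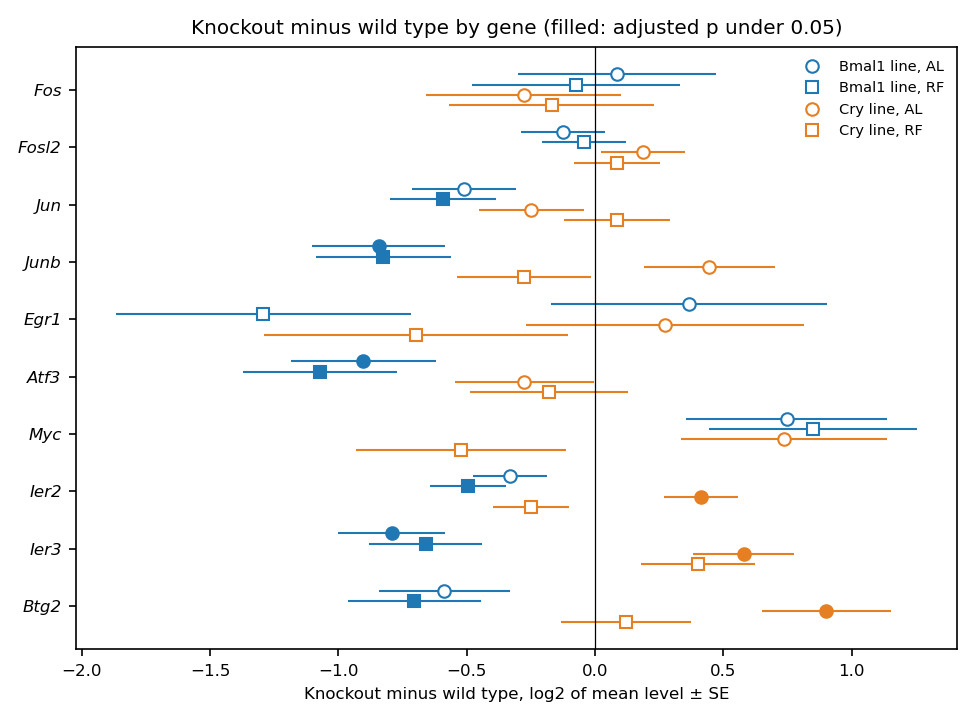
Difference in mean level between KO and WT (log2, x axis) of each of the 10 genes, in each line and feeding. Points are edgeR estimates, bars are 1 SE, and filled points have an adjusted p under 0.05. In the Bmal1 line 3 points are filled under AL and 6 under RF, all below 0, and in the Cry line 3 are filled under AL, all above 0, and 0 under RF.

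In the Cry line under AL, Btg2, Ier3 and Ier2 rose in the knockout and 0 of the 10 fell. These 3 of 10 stood against 33.0% of all genes called, 19.7% higher and 13.3% lower, a share near the background. The median log2 difference was 0.34 over the 10 and -0.03 over all genes. Btg2 stood at a lowest, median and highest of 8.16, 13.0 and 27.8 CPM in WT and 13.5, 24.4 and 43.5 CPM in KO, a rise of 0.90 ± 0.25 (adjusted p = 0.00478, edgeR). Ier3 stood at 0.537, 0.909 and 1.40 CPM in WT and 0.736, 1.43 and 2.16 CPM in KO, a rise of 0.58 ± 0.20 (adjusted p = 0.0204). The KO medians were above the WT medians and the ranges overlapped.

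The rise of Ier2 came from 1 of the 2 KO series. Series 1 of Cry KO AL held 13.9, 15.7 and 20.8 CPM of Ier2 (lowest, median and highest of 6) and series 2 held 25.6, 29.9 and 46.8 CPM, without overlap. The 12 WT libraries held 14.3, 17.3 and 27 CPM. Over all libraries the rise was 0.41 ± 0.15 (adjusted p = 0.0245), and without series 2 the difference was -0.10 (adjusted p = 0.837, edgeR). The Junb medians also differed, at 18.5 CPM in series 1 and 36.5 CPM in series 2. The Junb ranges of 11.3 to 32.6 and 24.4 to 44.8 CPM overlapped, however. Junb was not called over all libraries (0.45 ± 0.25, adjusted p = 0.168, edgeR). Without series 2, 0 of the 10 were called by edgeR. Btg2 then differed by 0.65 ± 0.31 (adjusted p = 0.272) and Ier3 by 0.56 ± 0.24 (adjusted p = 0.197). Without series 4 of Cry WT AL 0 were called as well, and without series 2 of Cry WT AL 1 was, Btg2.

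Series 2 of Cry KO AL stood apart in other ways. The sum of 8 stellate cell markers was 153 to 242 CPM there and 313 to 362 CPM in series 1, and that of the 8 Kupffer cell markers was 122 to 293 CPM against 369 to 746 CPM. With the endothelial sums, 3 marker lists did not overlap between these series. The acute phase sum had a median of 8150 CPM in series 2 and 2871 CPM in series 1. Mitochondrial genes held 7.79% to 12.4% of the counts in series 2 and 5.96% to 7.31% in series 1, and 14966 to 19568 genes were detected against 21092 to 22123, both without overlap. Total counts were 2694543 to 27410460 in series 2 and 24231196 to 27979545 in series 1. Their part in the result was not tested.

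In the Cry line under RF, 0 of the 10 genes were called, against 6.3% of all genes by edgeR (3.28% higher and 3.02% lower). DESeq2 and limma-voom called 0 as well. An unadjusted p under 0.05 was found for 0 of the 10 and 2944 of all 15772 genes. The largest fitted difference was that of Egr1, -0.70 ± 0.59 (adjusted p = 0.597). The KO effect under RF minus that under AL was called for 1 gene, against 6.33% of all genes and 5.48% called lower: Ier2 with -0.66 ± 0.21 (adjusted p = 0.0434). Without series 2 of Cry KO AL 0 genes were called, and the same count came from leaving out any other series but 2: 3 genes (Btg2, Ier2 and Junb) were called without series 1 of Cry KO AL, and Ier2 alone without series 8 of Bmal1 WT AL.

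Few of these genes were called for night feeding itself, which does not show that the others were unmoved. RF against AL gave 0 calls among the 10 in Bmal1 WT (15.7% of all genes), Bmal1 KO (0.545%) and Cry WT (1.59%), by edgeR, and DESeq2 and limma-voom called 0 as well. At an unadjusted p under 0.05 the counts were 0, 3 and 0 of the 10, and 5147, 2094 and 2245 of all 15772 genes. In Cry KO, 2 genes fell and 0 rose, against 18.2% of all genes called, 5.07% higher and 13.1% lower. That share was near the background. Ier2 fell by 0.46 ± 0.15 (adjusted p = 0.0235), with 8.85, 17.0 and 24 CPM in Cry KO RF and 13.9, 23.2 and 46.8 CPM in Cry KO AL. Junb fell by 0.72 ± 0.26 (adjusted p = 0.0473), with 10.7, 15.5 and 28.1 CPM under RF and 11.3, 25.2 and 44.8 CPM under AL. The ranges overlapped. Without series 2 of Cry KO AL, Ier2 differed by 0.05 (adjusted p = 0.918) and Junb by -0.21 (adjusted p = 0.786). Neither gene was called without series 3 or without series 5 of Cry KO RF, and leaving out either series of Cry WT AL gave a call for Jun in their place. The call of Junb was lost, and that of Ier2 was not, when any series of the Bmal1 line other than series 8 of Bmal1 WT AL was left out.

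The 8 groups were put in order of mean log2 level for each gene. Of 70 neighbouring pairs in the orders of the 10 genes, 3 were further apart than 1 SD, pooled over the 12 libraries of each group. These were Ier2 between Bmal1 KO AL and Bmal1 KO RF, Ier3 between Bmal1 WT RF and Bmal1 KO RF, and Junb between Bmal1 WT RF and Bmal1 KO AL. That SD includes the daily course, and neighbours in a sorted order lie close. The low count thus does not show that the groups were alike.

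For each gene and group the highest of the 12 libraries was compared with the other library of the same time. Of the 80 gene and group pairs, 29 peaks were single, at least 3 times the other library, and 21 were shared, with both libraries of that time among the 4 highest. The remaining 30 were neither, and a peak that met both rules was counted as single. Single peaks were thus 36.2% of the members' pairs and 11.2% of the pairs of all 15772 genes tested, and shared peaks 26.2% and 34.5%. Egr1 had a single peak in 8 of 8 groups and Fos in 6 of 8. Atf3 had a shared peak in 6 of 8 and Myc in 4 of 8. Ier2 and Ier3 had 0 single peaks. Fos and Egr1 peaks were thus mostly carried by 1 library, and the Atf3 peak was mostly seen in both.

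For Egr1 the largest such gap was in Cry WT RF at ZT4, with 402 CPM in series 9 and 13.2 CPM in series 6, a 30.3-fold difference. In Cry WT AL at ZT20 the values were 140 CPM in series 4 and 11.6 CPM in series 2. Under AL at ZT4, Cry WT held 119 and 99.6 CPM, so there the high level was seen in both libraries. For Myc in Cry KO AL at ZT12 the values were 49.7 CPM in series 1 and 2.87 CPM in series 2.

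The 2 libraries of a group and time differed by a median of 2.70-fold for Egr1, 1.84-fold for Myc, 1.53-fold for Fos and 1.51-fold for Btg2. Atf3 differed by 1.42-fold, Junb by 1.39-fold, Jun by 1.28-fold, Fosl2 by 1.25-fold and Ier2 by 1.23-fold. Over 12480 genes with a mean of at least 1 CPM the median was 1.17-fold. Ier3, whose mean was below that limit, was left out. Egr1 differed at least 3-fold in 22 of the 48 pairs and Myc in 11, and Ier2 in 0.

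Some libraries were high in several of the genes at once. Series 6 of Cry WT RF at ZT12 was at least 3 times its partner for 6 of the 10 genes, where 7.95% of 12987 genes were. Junb stood at 82.0 against 7.33 CPM, Btg2 at 90.5 against 11.5 CPM and Jun at 67.9 against 19.8 CPM. Egr1 stood at 20.4 against 3.53 CPM, Fosl2 at 37.4 against 8.83 CPM and Fos at 2.77 against 0.677 CPM. Myc, at 17.0 against 14.6 CPM, and Ier2, at 25.8 against 22.6 CPM, were close in both libraries. In this library the 8 acute phase genes summed to 76473 against 2779 CPM, the Kupffer cell markers to 975 against 185 CPM and 7 neutrophil markers to 143 against 1.62 CPM. Hepatocyte markers summed to 53084 against 99799 CPM. The part of these in the result was not tested.

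Series 2 of Cry KO AL at ZT16 was at least 3 times its partner for 4 genes, where 2.23% of 12776 genes were. Egr1 stood at 70.4 against 7.16 CPM, Fos at 6.71 against 0.813 CPM, Myc at 27.7 against 4.30 CPM and Jun at 38.5 against 12.2 CPM. Junb, at 44.8 against 15.7 CPM, and Ier2, at 46.8 against 16.4 CPM, were just under the limit. The acute phase sum was 13940 against 2817 CPM and the endothelial sum 122 against 396 CPM. Series 1 of Bmal1 WT AL at ZT4 was high for 3 genes (Fos, Btg2 and Egr1; 1.44% of 12601 genes), with an acute phase sum of 15965 against 2150 CPM. Series 2 of Cry WT AL at ZT20 was high for 3 genes (Jun, Junb and Atf3; 1.36% of 12836 genes), and Egr1 was lower there than in its partner. Series 3 of Cry KO RF at ZT4 was high for 3 (4.08% of 13182 genes) but held only 3 counts of Fos and 3 of Atf3.

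**Figure D5:**
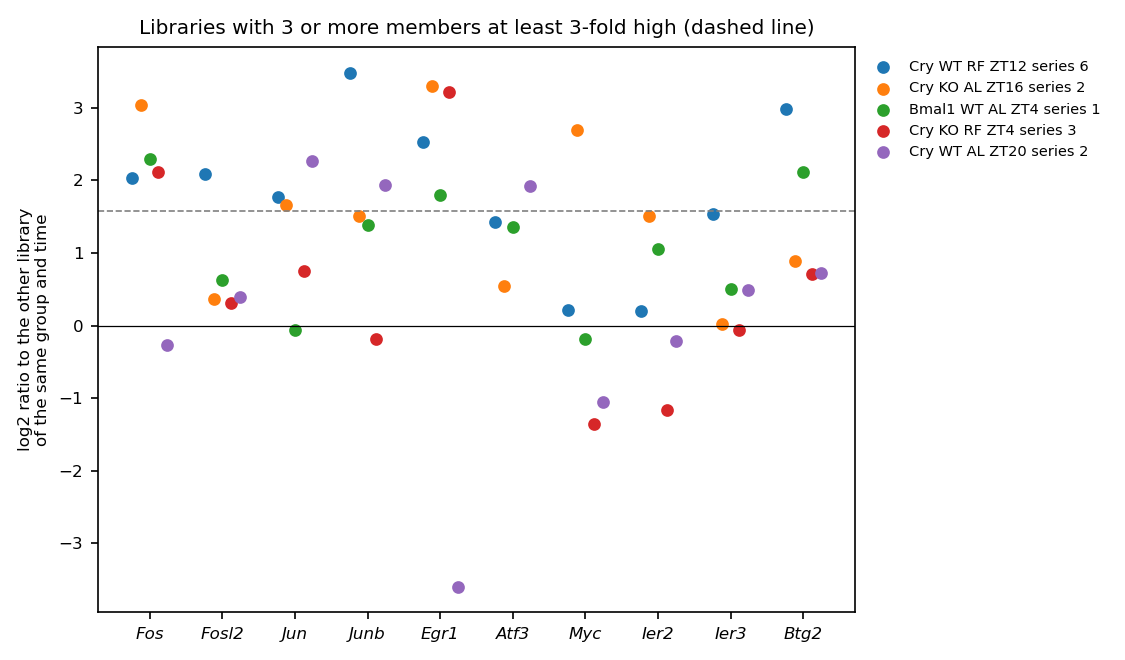
Log2 ratio of each gene between a library and the other library of its group and time, for the 5 libraries with 3 or more genes at least 3-fold higher. The dashed line is 3-fold. In series 6 of Cry WT RF at ZT12, 6 of 10 genes lie above it and Myc and Ier2 lie near 0, and in series 3 of Cry KO RF at ZT4 Atf3 is missing because its partner held 0 counts.

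Whether the genes differed together between libraries of 1 group and time was asked over the 48 differences of log2 CPM, centred by group, for Fos against the 9 others. Adjusted p-values are from permutation over the 9 correlations. Fos and Junb had r = 0.55 (rho = 0.55, adjusted permutation p = 0.0059) and r = 0.49 without the 2 farthest pairs. Fos and Fosl2 had r = 0.52 (rho = 0.55, adjusted permutation p = 0.0069) and r = 0.48 without them. Fos and Egr1 had r = 0.50 (rho = 0.45, adjusted permutation p = 0.0059) and r = 0.39 without them. Ier2 had r = 0.45 (rho = 0.42, adjusted permutation p = 0.017), which was 0.24 without the 2 farthest, and Jun had r = 0.36 (rho = 0.34, adjusted permutation p = 0.0342), which was 0.21. The relation of these 2 rests in part on those pairs.

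Ier3 (r = 0.42, rho = 0.40), Atf3 (r = 0.37, rho = 0.39) and Btg2 (r = 0.37, rho = 0.25) had adjusted permutation p-values of 0.0186, 0.0299 and 0.0435, and 0.138 for Btg2 by rank. For Myc the correlation was r = 0.06 (rho = -0.10, adjusted permutation p = 0.745). Of the 15771 other genes tested, 4.08% had an r with Fos at least as high as that of Jun, the lowest of the 8 called, and 0.285% one at least as high as that of Junb. The median r was 0.42 over the 9 genes and 0.01 over all others. Within the Bmal1 line, over 24 differences, Junb had r = 0.61 (adjusted permutation p = 0.0569) and 0 of the 9 were called. Within the Cry line, Egr1 had r = 0.61 and Jun r = 0.55 (adjusted permutation p = 0.0316 for both), and these were the 2 called. Jun in the Bmal1 line had r = -0.08, and the difference between the lines was not tested.

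Over the 96 libraries, each member was compared with genes with a mean of at least 1 CPM. Genes without a symbol, Y-linked genes and predicted Gm and Rik models were left out. The genes with the highest Pearson correlation of log2(CPM + 0.5) to each member were as follows, as a description with no test. Myc was closest to Gadd45g, a stress and growth arrest gene (r = 0.81). Jun was closest to Dusp8, a phosphatase of stress kinases (r = 0.76), then to Atf3 (r = 0.73), and Atf3 in turn to Jun and then Rcan1 (r = 0.72). Junb was closest to Arl8a (r = 0.73) and the chemokine gene Cxcl1 (r = 0.69), and Fosl2 to the phosphatase gene Ptpn1 (r = 0.71). Fos was closest to the cytokine gene Il1b (r = 0.55) and the acute phase genes Saa2 (r = 0.51) and Saa1 (r = 0.49). Egr1 was closest to Depp1 (r = 0.56), Ier2 to Prcc (r = 0.67) and the AP-1 gene Jund (r = 0.65), Ier3 to Syne4 (r = 0.71) and Btg2 to Grn (r = 0.75). Libraries share time, group and depth, which bear on every such correlation.

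Genes of the same pathways were counted in the same fits. Their lists were drawn up from general knowledge, but with earlier results of these data known. Of 30 other immediate early genes tested, 18 were rhythmic in the mean WT and 8 in the mean KO, against 26.6% and 9.11% of all genes. Their median ranges were 0.69 and 0.50 against 0.37 and 0.26 over all genes. Pim1, a kinase gene, had a WT range of 1.10 and a peak at ZT 5.29, near that of Junb. In the Bmal1 KO 8 of these 30 fell and 3 rose under AL, and 6 fell and 1 rose under RF, with median log2 differences of -0.22 and -0.20. Maff, a small MAF protein of the wider AP-1 family that is counted in the next list too, fell by 1.96 ± 0.26 under AL and by 1.70 ± 0.27 under RF. In the Cry KO Maff rose by 1.61 ± 0.24 under AL and by 1.01 ± 0.25 under RF, and the kinase gene Sik1 rose by 1.09 ± 0.24 and 0.94 ± 0.24. In Cry AL 3 of the 30 rose and 2 fell, where 33.0% of all genes were called, and in Cry RF 2 rose and 1 fell, where 6.3% were.

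Of 12 other AP-1 family genes, 4 fell and 0 rose in the Bmal1 KO under each feeding. In the Cry KO under AL, 2 rose and 3 fell. Of all genes, 24.4% and 20.6% were called in the Bmal1 KO under AL and RF, and 33.0% in the Cry KO under AL. The median log2 difference of the 12 was -0.17 and -0.26 in the Bmal1 KO under AL and RF. Jund, the constitutive Jun family member, fell by 0.45 ± 0.14 and 0.46 ± 0.14 in the Bmal1 KO and rose by 0.53 ± 0.14 in the Cry KO under AL. In the mean WT 5 of the 12 were rhythmic, against 26.6% of all genes, among them Maff (range 2.44, peak at ZT 9.68). Of 20 regulators of the early response, 5 were rhythmic in the mean WT and 2 in the mean KO, shares near the 26.6% and 9.11% of all genes. Spry4, an inhibitor of growth factor signalling, had a WT range of 1.35 and a peak at ZT 5.59, and fell by 0.69 ± 0.21 and 0.70 ± 0.21 in the Bmal1 KO. Mapk3, the gene of the kinase ERK1, fell by 0.37 ± 0.08 and 0.21 ± 0.08 in the Bmal1 KO and rose by 0.37 ± 0.08 in the Cry KO under AL.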

How the data were processed

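Liver mRNA was sequenced as paired ends from stranded libraries of poly(A) RNA in 96 samples. The authors deposited raw counts per Ensembl gene, not normalised. STAR 2.4.0i and the build mm10 are named in the submitters' processing notes. How reads were assigned to genes, with which strand setting and annotation, is not given in the sources used here. Symbols and coordinates were taken from GENCODE M21, and 267 of 55421 identifiers had no symbol.

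The tests used edgeR 4.0.16 under R 4.3.3 (TMM, filterByExpr with a minimum count of 10 and a minimum total of 15). After filtering, 15772 of the 35670 genes with a count remained, with 99.9% of the counts. All 96 libraries entered each fit. Mean levels used a mean per group and time, averaged over the 6 times, and rhythms a 24 h cosine per group. Quasi-likelihood tests were two-sided, with Benjamini-Hochberg adjustment over all genes tested in a comparison. A rhythm was called at an adjusted p under 0.05 and a range of at least 0.5 log2. Differences of rhythm and of mean level needed the adjusted p only. Correlations used log2(CPM + 0.5) and 100000 permutations within groups. The fits were tested on simulated data.

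Alternatives were RLE size factors, no filter, the compared groups alone, cosine intercepts, a joint test of the 6 times, DESeq2 1.42.0, limma-voom (limma 3.58.1), a block for the replicate number, each series left out in turn, and fits without the 3 shallowest libraries, the 7 set apart or the 1 high in 5 or more members. For the correlations, a pseudocount of 0.1 CPM was tried. The named genes are the 10 members, up to 4 called genes with the smallest p per list and comparison, and the 3 genes most alike to each member. The members and lists were chosen with earlier results of these data known.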

Additional observations from a re-analysis of the deposited data

Results flagged for a closer look

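The effect of the Cry knockout on Ier2 differed between feedings, with a difference of -0.66 ± 0.21 on the log2 scale (RF minus AL, adjusted p = 0.0434, edgeR). The call was lost in 19 of 25 alternatives, with differences from -1.01 to -0.15 and adjusted p-values of up to 0.995. Ier2 was 25.6 to 46.8 CPM in all 6 libraries of series 2 of Cry KO AL and 13.9 to 20.8 CPM in all 6 of series 1, and Cry KO RF held 8.85 to 24 CPM. The endothelial marker sum of series 2 was below that of series 1 without overlap, its mitochondrial share of counts was higher and its number of detected genes lower, also without overlap, and their part in the result was not tested.

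The daily course of Egr1 differed between the mean knockout and the mean wild type (adjusted p = 0.00173, edgeR). The adjusted p lay above 0.05 in 2 of 24 alternatives, without series 9 of Cry WT RF (0.0607) and with limma-voom.

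The daily course of Myc differed in the same comparison (adjusted p = 0.0254, edgeR). All 8 KO libraries at ZT4 (4.63 to 32.7 CPM) were above all 8 WT libraries (2.29 to 3.85 CPM), and the call was lost in 10 of 24 alternatives, with adjusted p-values of up to 0.259.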

How the results depend on the processing

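Values here are numbers of the 10 genes called unless said otherwise. They are given without the share of all genes called under the same setting. A change of count among the 10 can thus not be told from a general change in calls. With no filter on low counts, the calls for RF against AL were 4 in Bmal1 KO, 2 in Bmal1 WT, 6 in Cry KO and 1 in Cry WT. For the knockout effect under RF minus AL they were 1 in the Bmal1 line and 5 in the Cry line, and for the knockout effect 8 in Bmal1 AL and 2 in Cry RF. Rhythm calls with no filter were 5 in Bmal1 KO AL, 3 in Bmal1 KO RF, 4 in Bmal1 WT AL, 5 in Bmal1 WT RF, 4 in Cry KO AL, 4 in Cry KO RF, 7 in Cry WT AL and 8 in Cry WT RF. They were 4 for the mean KO and 6 for mean KO minus mean WT. Differences of rhythm with no filter were called for 3 genes in Bmal1 WT, 1 in Cry KO and 5 in Cry WT between feedings, and for 3 in Bmal1 AL, 3 in Bmal1 RF, 5 in Cry AL and 5 in Cry RF between genotypes. The cause was not tested.

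RF against AL in Cry KO gave 1 with RLE size factors, with cosine intercepts or without the 7 libraries set apart, and 0 with the compared groups alone, with limma-voom or without the 3 shallowest libraries. The knockout effect under RF minus AL in the Cry line gave 0 with the compared groups alone, with limma-voom, and without the 3 shallowest, the 7 set apart or the 1 high library. The knockout effect gave 5 in Bmal1 AL with the compared groups alone and 1 in Cry AL with limma-voom. Rhythm calls by limma-voom were 3 in Bmal1 WT AL, 2 in Bmal1 WT RF and 4 in Cry WT AL, with 1 difference of rhythm in Cry AL. DESeq2 called 3 in Bmal1 WT RF. The joint test of the 6 times called 1 in Bmal1 WT RF, 0 in Cry KO RF, 3 in Cry WT AL and 4 for mean KO minus mean WT. Without the 7 libraries set apart, 1 was called in Bmal1 WT RF, 0 in Cry KO RF and 2 in Cry WT RF. Without the 1 high library the counts were 1 in Bmal1 WT RF, 2 in Cry WT RF and 4 for mean KO minus mean WT. Of the 9 correlations with Fos, 8 were called, and 5 without Cry KO AL, 5 without the high library, 0 in the Bmal1 line and 2 in the Cry line. The last 2 settings were chosen after seeing the data. The cause of these changes was not tested, beyond there being fewer libraries where some were left out.

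With each series left out in turn, the counts ran from 0 to 5 for Bmal1 AL, 0 to 6 for Bmal1 RF, 0 to 3 for Cry AL, 0 to 2 for RF against AL in Cry KO and 0 to 3 for the knockout effect under RF minus AL in the Cry line. For rhythms they ran from 0 to 1 in Bmal1 WT AL, Cry WT AL and Cry KO RF, 0 to 2 in Bmal1 WT RF and 1 to 5 in Cry WT RF. They ran from 5 to 7 for the mean WT, 1 to 2 for the mean KO, 1 to 4 for mean KO minus mean WT and 0 to 2 for RF against AL in Cry WT. The group's other library then stood alone at each time and was assumed to vary like the other groups. With series of Cry KO AL left out, the log2 knockout effect on Ier2 under AL was 0.77 without series 1 and reversed to -0.096 without series 2. RF against AL in Cry KO was -0.80 without series 1 and reversed to 0.050 without series 2. Of 7250 values of single genes under alternatives, 6937 kept their side of the threshold, 173 passed it anew, 138 lost it and 2 reversed sign. Reversal was counted only for mean levels where the main fit or the alternative called the gene. Sign changes of differences called in neither fit are thus among the 6937.

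Same-numbered series of Bmal1 WT and KO had correlations of -0.08 to 0.30 between their deviations at the 12 pairs of time and feeding. Most were above 0 and weak. They were not tested, so they do not settle whether the numbers pair the libraries. With the replicate block, the counts were 3 for Bmal1 AL, 6 for Bmal1 RF, 1 for the rhythm of Bmal1 WT AL and 0 for the other 6 results fitted, as without it. Depth limited Fos, Atf3 and Ier3 most, whose median libraries held 19, 26 and 17.5 counts.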
